A study of Mus musculus with 12 samples.

Results

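The genes described here encode 9 enzymes of serine, glycine and one-carbon metabolism. They were taken by symbol from the 51826 genes counted, and the list was chosen with earlier results of these data known. The set holds Phgdh, Psat1 and Psph, which encode the enzymes of serine synthesis, Shmt1 and Shmt2, which encode the cytosolic and the mitochondrial serine hydroxymethyltransferase, and Mthfd1, Mthfd2, Mthfd1l and Aldh1l2, which encode enzymes that carry one-carbon units on folate. Of the 9 genes, 8 passed the filter on low counts, and Aldh1l2 had no read in any library. Their transcripts were counted by sequencing mRNA 3′ ends in 12 libraries from mouse B lymphoma cells, which form 6 groups of 2.

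The cells were of the 19DN line. Its parent, 19PP, arose in a Rag2-/-γC-/- mouse that had received bone marrow of a Cγ1-Cre; Myc/P110*flSTOP mouse. Cγ1-Cre is a recombinase expressed from an immunoglobulin heavy chain locus and acts in activated B cells, so all 6 groups share the Myc and P110* alleles. Expression of Flp removed the GFP and hCD2 reporters, and sorted reporter-negative cells gave 19DN. The lines differed in RPL12, a protein of the large ribosomal subunit, in which serine 38 was aspartate (S38D), alanine (S38A) or unaltered (WT). The sources used here give neither how the mutations were made nor how many clones each line stands for. Mitotic cells had been kept for 8 h with 100 ng/mL of the microtubule poison nocodazole and washed free of it for 10 min. Asynchronous cells were growing cultures, and every culture was harvested in cycloheximide at 100 µg/mL. The medium held 10% serum and 1% of a non-essential amino acid supplement, in all groups. Mitosis, the drug and the release differ together between the states and cannot be told apart. The labels do not say whether the 2 libraries of a group came from separate cultures, so the p-values reflect the spread of these libraries alone, which may be technical.

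Cells make serine from a glycolytic intermediate in consecutive steps, which PHGDH, PSAT1 and PSPH catalyse. SHMT enzymes split serine into glycine and a one-carbon unit bound to tetrahydrofolate, SHMT2 in mitochondria and SHMT1 in the cytosol. In mitochondria MTHFD2 and MTHFD1L oxidise the unit and release it as formate, and in the cytosol MTHFD1 recharges folate with formate for purine and thymidylate synthesis. Proliferating lymphocytes and lymphomas are known for high use of this pathway, and the transcription factor ATF4, which is induced on amino acid shortage, is a known activator of several of its genes.

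The promoters of 4 genes are shown because Psat1 and Mthfd2 had the most similar expression patterns within the set, whereas Shmt1 and Shmt2 shifted relative to each other between the cell states. Each window runs from 250 bases before to 50 bases after a transcription start in RefSeq on GRCm38.p6. All 4 are on the minus strand and are printed 5′ to 3′ along the gene. Capitals mark CCAAT, the letters of the CCAAT box, or its reverse complement ATTGG. The windows lie at chr19:15925010-15925309 for Psat1, chr6:83317555-83317854 for Mthfd2, chr11:60811216-60811515 for Shmt1 and chr10:127522395-127522694 for Shmt2.
Psat1: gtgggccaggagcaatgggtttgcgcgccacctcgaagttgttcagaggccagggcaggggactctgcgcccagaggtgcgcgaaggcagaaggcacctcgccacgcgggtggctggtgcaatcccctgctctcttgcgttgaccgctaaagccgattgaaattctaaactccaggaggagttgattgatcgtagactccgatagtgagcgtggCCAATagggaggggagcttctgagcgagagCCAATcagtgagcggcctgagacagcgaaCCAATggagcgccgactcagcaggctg
Mthfd2: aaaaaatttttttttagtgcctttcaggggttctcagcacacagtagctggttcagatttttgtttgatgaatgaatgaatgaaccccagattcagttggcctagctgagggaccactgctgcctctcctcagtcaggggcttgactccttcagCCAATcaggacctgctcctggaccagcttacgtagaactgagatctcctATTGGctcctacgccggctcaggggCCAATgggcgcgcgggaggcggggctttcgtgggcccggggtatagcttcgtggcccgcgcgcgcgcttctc
Shmt1: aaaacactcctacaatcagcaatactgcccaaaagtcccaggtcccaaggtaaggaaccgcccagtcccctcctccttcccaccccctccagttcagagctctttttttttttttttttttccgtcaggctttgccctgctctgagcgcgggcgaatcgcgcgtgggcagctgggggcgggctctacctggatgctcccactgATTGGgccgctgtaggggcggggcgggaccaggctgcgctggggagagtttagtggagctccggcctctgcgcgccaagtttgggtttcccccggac
Shmt2: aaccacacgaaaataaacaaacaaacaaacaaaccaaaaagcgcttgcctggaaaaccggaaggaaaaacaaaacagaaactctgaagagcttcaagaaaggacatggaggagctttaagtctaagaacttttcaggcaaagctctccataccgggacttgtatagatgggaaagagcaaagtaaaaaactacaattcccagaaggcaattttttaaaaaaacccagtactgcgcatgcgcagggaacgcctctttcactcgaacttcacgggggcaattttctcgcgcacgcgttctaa

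RefSeq gave 9 windows for the 8 measured genes, because Psat1 has 2 starts. CCAAT, searched on both strands, was in 6 of the 9 windows and in 37.4% of 32851 mouse promoter windows of the same length. The Psat1 window above held 3 matches, at positions -36, -6 and 23 relative to the start. The Mthfd2 window held 3 matches, at positions -96, -47 and -22. Shmt1 had 1 match, at position -47, and Shmt2 had no match. TGATGNAA, the core of the amino acid response element that ATF4 binds, was in none of the 9 windows and in 3.97% of all windows. CACGTG, the E-box that MYC binds, was in none of the 9 and in 7.15% of all windows. A missing match says only that these letters are not in these windows.

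Gene reads per library ranged from 3432875 to 6587997. Replicates lay farthest apart in the S38D asynchronous group, where 44.1% of genes differed beyond counting error, and in the WT mitotic group, where 27.3% did, against 14.0% to 20.9% in the other 4 groups. All 8 B cell markers looked for were detected, with a summed level of 1544 to 2319 normalised counts (CPM, reads scaled to a common library size) in mitotic and 2576 to 3615 CPM in asynchronous libraries. Markers of T and NK cells summed to at most 7.41 CPM, with Cd3e, Cd3g, Cd4, Cd8a and Nkg7 at 0 reads. Myeloid markers summed to at most 2.53 CPM, with Itgam, Elane and Cd14 at 0, and stromal and epithelial markers to at most 6.03 CPM, with Col1a2, Krt18 and Krt8 at 0. Rpl12 itself was read in every library at 28.3 to 74.4 CPM, but reads from the 3′ end do not show codon 38.

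Differences were tested with edgeR's quasi-likelihood test over 10477 genes, and a change was called when the p-value adjusted by Benjamini-Hochberg over all of these genes was under 0.05. Fold changes are fitted log2 values with their standard error (SE), and levels are CPM scaled by the trimmed mean of M values. Averaged over the 3 lines, 5 of the 8 enzyme mRNAs fell in mitotic cells and 2 rose, beside 42.1% of all tested genes that were called, 21.6% lower and 20.5% higher. The median change of the 8 was -0.36, and that of all genes tested was -0.02. The genes that fell were Phgdh, Psat1, Shmt2, Mthfd2 and Mthfd1l, and those that rose were Shmt1 and Mthfd1, whose calls were lost when libraries were scaled to the spike-in RNA (0.10, adjusted p = 0.33, for Shmt1 and 0.02, adjusted p = 0.93, for Mthfd1). In bulk RNA, fewer cells with a transcript and less of it per cell cannot be told apart. In mitotic cells the summed level of the 8 enzymes was 1778 and 1794 CPM in S38D, 2325 and 2311 CPM in S38A and 2811 and 2567 CPM in WT. Among asynchronous cells the sum was 2793 and 2390 CPM in S38D, 2780 and 2829 CPM in S38A and 2688 and 3004 CPM in WT. The mitotic S38D and S38A libraries lay below all the others. Psat1 and Mthfd2, the most abundant of the 8, weigh most in this sum. In mitotic cells Psat1 averaged 522 CPM in S38A and 664 CPM in WT, and Mthfd2 641 and 1007 CPM. Shmt1 and Mthfd1 were called higher in S38A there, and the median change of the 8 against WT was -0.08.

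**Figure D1:**
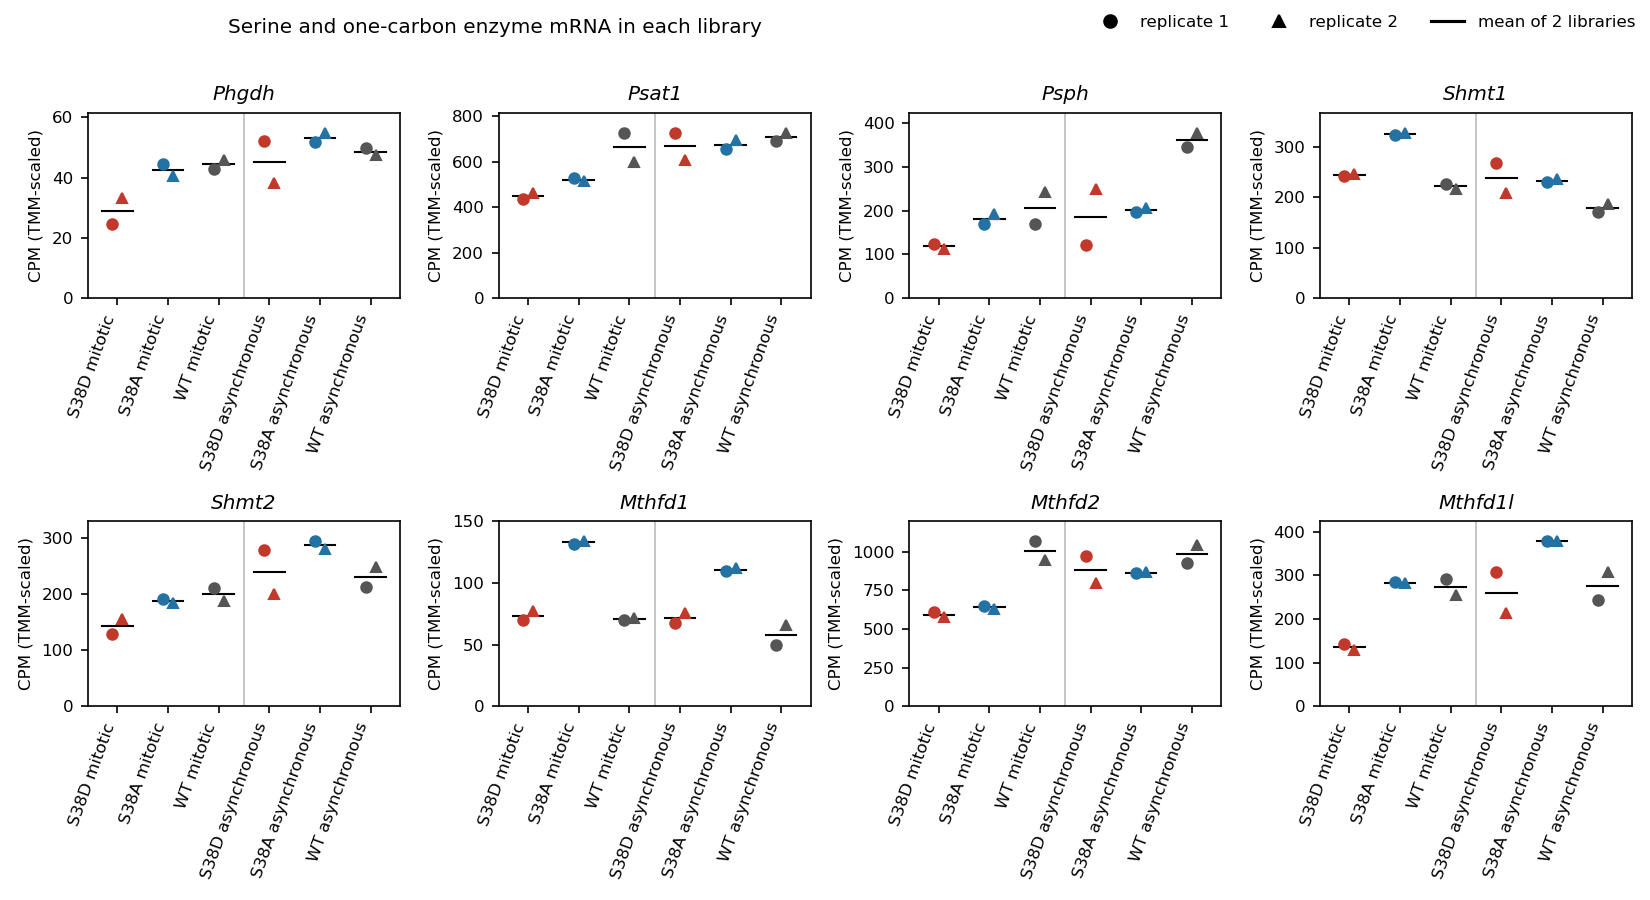
Level of each of the 8 measured enzyme mRNAs in CPM (vertical axis) in each library, by line and state. Points are libraries, horizontal lines are means of 2 libraries, and the mitotic groups are left of the vertical line. Mthfd1l stands at 142 and 128 CPM in mitotic S38D cells and at no less than 213 CPM in the other groups.

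Phgdh encodes the dehydrogenase that opens serine synthesis and lies at chr3:98313170-98339990 on the minus strand of GRCm38. The mitotic libraries held 24.7 and 33.3 CPM in S38D, 44.5 and 40.4 CPM in S38A and 42.9 and 45.9 CPM in WT. The asynchronous libraries held 52.0 and 38.2 CPM in S38D, 51.7 and 54.8 CPM in S38A and 49.7 and 47.6 CPM in WT. Both mitotic S38D libraries were the lowest of the 12. Over the lines Phgdh fell in mitotic cells by 0.37 (log2 SE 0.10, adjusted p = 0.0071, edgeR). Within S38D it fell by 0.63 (SE 0.17, adjusted p = 0.013), a call lost without S38D asynchronous replicate 1 (-0.39, adjusted p = 0.12) or S38D mitotic replicate 1 (-0.44, adjusted p = 0.16), and in the fit of these 2 groups alone (adjusted p = 0.12). Mitotic S38D cells were also lower than mitotic S38A cells, which DESeq2 did not call (adjusted p = 0.14) and edgeR did (-0.54, SE 0.17, adjusted p = 0.041). That call failed without any one of 7 libraries, where the adjusted p reached 0.32 without S38D mitotic replicate 1. Against mitotic WT the value was -0.61 (SE 0.17, adjusted p = 0.061), with no overlap of the libraries. The first 167 of the last 300 transcript bases of Phgdh match 11 annotated copies at 95% identity or more. The sources used here do not state how multiply matching reads were counted. The copies that have a count had at most 3 reads over all libraries, against 2825 reads for Phgdh.

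Psat1 encodes the aminotransferase of the second step and lies at chr19:15904678-15947337 on the minus strand. Mitotic levels were 437 and 463 CPM in S38D, 528 and 517 CPM in S38A and 727 and 601 CPM in WT. Asynchronous levels were 727 and 610 CPM in S38D, 656 and 696 CPM in S38A and 692 and 728 CPM in WT. The asynchronous lines overlapped, and the mitotic lines stood in the order S38D, S38A, WT without overlap. Psat1 fell in mitotic cells over the lines (-0.35, SE 0.07, adjusted p = 0.00061), in S38D (-0.57, SE 0.12, adjusted p = 0.0019) and in S38A (-0.37, SE 0.12, adjusted p = 0.041). The S38A call was lost without any one of the S38A, WT asynchronous or S38D mitotic libraries, where the adjusted p was 0.063 to 0.22 and under spike-in scaling (adjusted p = 0.14). The S38D call was lost in the fit of the 2 S38D groups alone (adjusted p = 0.061). In mitotic cells it was lower in S38D than in WT (-0.56, SE 0.12, adjusted p = 0.0091). This call was lost without WT mitotic replicate 1 (-0.42, adjusted p = 0.16), S38D mitotic replicate 1 (-0.52, adjusted p = 0.13) or S38D mitotic replicate 2 (-0.60, adjusted p = 0.072). The matching value in S38A against WT was -0.35 (SE 0.12, adjusted p = 0.051), and it was called without S38D asynchronous replicate 1 (adjusted p = 0.0058), S38D asynchronous replicate 2 (adjusted p = 0.0081) or WT mitotic replicate 2 (adjusted p = 0.028).

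Psph encodes the phosphatase that releases serine and lies at chr5:129765558-129787449 on the minus strand. It was the most variable of the 8 genes, with an SD of 0.55 in log2 level over the 12 libraries. Mitotic cells had 123 and 113 CPM in S38D, 170 and 193 CPM in S38A and 170 and 243 CPM in WT. Asynchronous cells had 122 and 248 CPM in S38D, 198 and 205 CPM in S38A and 344 and 377 CPM in WT. Both asynchronous WT libraries were above the other 10, and the 2 S38D asynchronous libraries spanned the mitotic S38A and WT libraries. No comparison of Psph passed the threshold. In asynchronous cells S38D against WT gave -0.96 (SE 0.32, adjusted p = 0.11) and S38A against WT gave -0.84 (SE 0.31, adjusted p = 0.11). DESeq2 called both, with adjusted p of 0.0018 and 0.0054. It also called mitotic S38D against WT (adjusted p = 0.032), and mitotic against asynchronous cells in S38D (adjusted p = 0.040) and WT (adjusted p = 0.0067). In asynchronous cells without S38D asynchronous replicate 2, edgeR gave -1.57 for S38D and -0.84 for S38A against WT. Without S38D asynchronous replicate 1 the S38A value was called (-0.81, adjusted p = 0.0041). Over the lines the mitotic difference was -0.53 (SE 0.18, adjusted p = 0.051), and DESeq2 called it (adjusted p = 0.00066). With edgeR it was called under spike-in scaling (-0.73, adjusted p = 0.046) and with the replicate number as a block (-0.53, adjusted p = 0.024). It was also called without S38D asynchronous replicate 1 (-0.68), without S38D asynchronous replicate 2 (-0.33) and without WT mitotic replicate 2 (-0.63).

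Averaged over the lines, Shmt2 and Shmt1 changed in opposite directions in mitotic cells, though the rise of Shmt1 was not called under spike-in scaling. Shmt2, the mitochondrial enzyme gene at chr10:127517123-127522444 on the minus strand, fell by 0.52 over the lines (SE 0.09, adjusted p = 0.00014). The mitotic libraries held 129 and 156 CPM in S38D, 192 and 185 CPM in S38A and 212 and 189 CPM in WT. The asynchronous libraries held 280 and 200 CPM in S38D, 295 and 281 CPM in S38A and 213 and 248 CPM in WT. The mitotic libraries lay below the asynchronous ones within each line. The fall was called in S38D (-0.75, SE 0.15, adjusted p = 0.0016) and in S38A (-0.61, SE 0.15, adjusted p = 0.010), whereas the WT value was -0.20 (SE 0.15, adjusted p = 0.34). Mitotic S38D against mitotic WT gave -0.49 (SE 0.15, adjusted p = 0.081). That value was called without either one of the S38D asynchronous libraries, at adjusted p of 0.0045 without replicate 1 and 0.0042 without replicate 2.

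Shmt1, the cytosolic enzyme gene at chr11:60788104-60811718 on the minus strand, rose by 0.28 over the lines (SE 0.07, adjusted p = 0.0038). Mitotic levels were 243 and 247 CPM in S38D, 324 and 328 CPM in S38A and 227 and 218 CPM in WT. Asynchronous levels were 268 and 208 CPM in S38D, 230 and 236 CPM in S38A and 171 and 187 CPM in WT. Mitotic S38A cells were the highest group and asynchronous WT cells the lowest, with no overlap with any other group. The rise was called within S38A (0.48, SE 0.12, adjusted p = 0.011), and the WT value was 0.31 (SE 0.12, adjusted p = 0.064). In S38D the value was 0.04 (SE 0.12, adjusted p = 0.85). Under spike-in scaling the value was 0.10 over the lines (adjusted p = 0.33) and -0.13 in WT (adjusted p = 0.48). Mitotic S38A cells were above mitotic WT cells (0.55, SE 0.12, adjusted p = 0.0043) under every alternative run. Mitotic S38D cells were below mitotic S38A cells (-0.41, SE 0.12, adjusted p = 0.024), a call lost without any one of these 4 libraries (adjusted p of 0.105 to 0.131). The last exon of Shmt1 overlaps Smcr8 on the other strand over 184 of its last 300 transcript bases, and without a stated strand setting their reads cannot be told apart. Smcr8 had 1140 reads over all libraries and Shmt1 had 15606.

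The ratio of Shmt2 to Shmt1 reads does not depend on how libraries are scaled. It was, in mitotic cells, 0.533 and 0.634 in S38D, 0.593 and 0.562 in S38A and 0.932 and 0.867 in WT. Among asynchronous libraries it was 1.04 and 0.958 in S38D, 1.28 and 1.19 in S38A and 1.25 and 1.32 in WT. Every mitotic library was below every asynchronous one, and both mutant lines were below WT in mitosis. Capture of the 2 transcripts at their 3′ ends may differ, so only the shift between libraries is read.

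**Figure D2:**
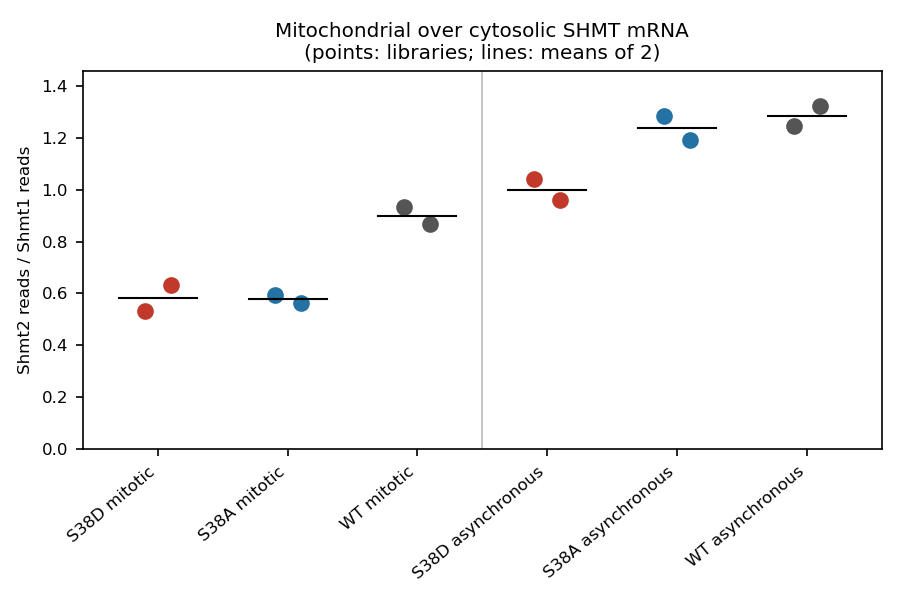
Ratio of Shmt2 to Shmt1 reads (vertical axis) in each library, by line and state. Points are libraries and lines are means of 2. Mitotic libraries, left of the vertical line, reach 0.932 at most, and asynchronous libraries 0.958 at least.

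Mthfd2, at chr6:83305691-83325908 on the minus strand, encodes the mitochondrial dehydrogenase and cyclohydrolase that oxidises the one-carbon unit. Mitotic cells had 610 and 577 CPM in S38D, 650 and 633 CPM in S38A and 1071 and 944 CPM in WT. Asynchronous cells had 970 and 797 CPM in S38D, 861 and 866 CPM in S38A and 926 and 1043 CPM in WT. The 4 mitotic mutant libraries were lower than all other libraries. Against mitotic WT cells Mthfd2 was lower in S38D (-0.76, SE 0.12, adjusted p = 0.00065) and in S38A (-0.65, SE 0.12, adjusted p = 0.0010), and both calls held under every alternative run. Both comparisons share the mitotic WT libraries. Mthfd2 fell in mitosis in S38D (-0.57, SE 0.11, adjusted p = 0.0016) and in S38A (-0.43, SE 0.11, adjusted p = 0.019). The S38D call was lost in the fit of the 2 S38D groups alone (adjusted p = 0.065). The S38A call was lost without any one S38A library (adjusted p of 0.081 to 0.13) and under spike-in scaling (adjusted p = 0.097). The WT value was 0.03 (SE 0.11, adjusted p = 0.86), which turned to -0.42 (adjusted p = 0.039) when libraries were scaled to the spike-in RNA.

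Mthfd1l, at chr10:3973118-4167081 on the plus strand, encodes the mitochondrial synthetase that releases formate, and it gave the largest change of the 8 genes in mitotic S38D cells. The mitotic libraries held 142 and 128 CPM in S38D, 285 and 282 CPM in S38A and 292 and 255 CPM in WT. The asynchronous libraries held 307 and 213 CPM in S38D, 379 and 379 CPM in S38A and 244 and 308 CPM in WT. The mitotic S38D libraries were the lowest of the 12, and the mitotic S38A and WT libraries overlapped. Mitotic S38D cells were at 0.494 of the mitotic WT level (log2 -1.02, SE 0.16, adjusted p = 0.0011) and at 0.477 of the mitotic S38A level (-1.07, SE 0.16, adjusted p = 0.00038). Both calls, and the fall in S38D between the states (-0.95, SE 0.16, adjusted p = 0.00048), held under every alternative run. S38A against WT in mitotic cells gave 0.05 (SE 0.15, adjusted p = 0.87). In asynchronous cells S38A was higher than WT (0.46, SE 0.15, adjusted p = 0.046). This call passed in 3 of 12 fits that left out 1 library, those without WT asynchronous replicate 2 or either one of the S38D asynchronous libraries, and the value turned to -0.01 (adjusted p = 0.97) under spike-in scaling.

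Mthfd1, at chr12:76255298-76319803 on the plus strand, encodes the cytosolic enzyme that joins formate to folate. Mitotic levels were 69.6 and 77.0 CPM in S38D, 132 and 134 CPM in S38A and 69.7 and 72.0 CPM in WT. Asynchronous levels were 67.6 and 75.3 CPM in S38D, 110 and 112 CPM in S38A and 49.3 and 65.8 CPM in WT. All 4 S38A libraries were above the other 8. S38A exceeded WT in mitotic cells (0.91, SE 0.14, adjusted p = 0.00028) and in asynchronous cells (0.95, SE 0.14, adjusted p = 0.00018), where spike-in scaling gave 0.48 (adjusted p = 0.066). S38D was below S38A in mitotic cells (-0.86, SE 0.14, adjusted p = 0.00049) and in asynchronous cells (-0.63, SE 0.14, adjusted p = 0.0089), the asynchronous call being lost without S38A asynchronous replicate 1 (adjusted p = 0.065) or replicate 2 (adjusted p = 0.083), under spike-in scaling (-0.55, adjusted p = 0.14) and in the fit of these 2 groups alone (adjusted p = 0.13). Mthfd1 lies on chromosome 12, and the median of the 383 tested genes of that chromosome was also higher in S38A. Their median difference in S38A against WT was 0.63 in mitotic and 0.46 in asynchronous cells, against 0.01 and -0.03 on the other chromosomes. Of these genes, 39.7% and 37.6% were called higher, and 1.83% and 4.44% lower. In S38D against WT their median was 0.07 in mitotic and -0.06 in asynchronous cells. The part of the whole chromosome in the Mthfd1 difference was not tested. The mitotic rise of Mthfd1 over the lines (0.20, SE 0.08, adjusted p = 0.0495) passed in 2 of 12 fits that left out 1 library, gave an adjusted p of 0.11 with DESeq2, and was 0.02 (adjusted p = 0.93) under spike-in scaling.

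Aldh1l2, at chr10:83487450-83534140 on the minus strand, encodes a mitochondrial enzyme that oxidises formyl-folate. It had 0 reads in all 12 libraries, which allows up to 3 reads in a library, or 0.472 to 0.849 CPM, by counting error only. The last 300 transcript bases of Aldh1l2 all overlap D10Wsu102e on the other strand, a gene with 513 to 1678 reads per library. Since the sources used here do not state the strand setting of the counting, reads of these genes cannot be told apart and the count of 0 is no measure of absence.

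The shares of all genes in this paragraph are those called by edgeR at adjusted p under 0.05 in the main fit of all 12 libraries. Shares at an unadjusted p, by DESeq2, under spike-in scaling or without a library are not given here. Counts of enzymes from those runs therefore have no background beside them. Within single lines, mitotic cells had 5 called enzymes in S38D, all lower (26.4% of all genes called, 14.8% lower). In S38A 3 were lower and Shmt1 was higher (14.8% of all genes called, 8.06% lower and 6.72% higher). The S38A count was 0 without any one S38A library. In WT none was called by edgeR (26% of all genes), with 3 at an unadjusted p under 0.05 and 1 call by DESeq2, Psph. Under spike-in scaling 5 were called lower in WT, Phgdh, Psat1, Shmt2, Mthfd2 and Mthfd1l. That scaling also moved the median of all genes down in this comparison, by the amount given below. Without either one of the S38D asynchronous libraries edgeR called 2 in WT, Psph and Shmt1, and without WT asynchronous replicate 2 it called Mthfd1. Whether the mitotic change differed between the lines was tested as a difference of differences, and edgeR called no enzyme in any pair of lines. For S38D minus WT edgeR called 0.401% of all genes at an adjusted p under 0.05. At an unadjusted p under 0.05 there were 4 enzymes, and DESeq2 called 2. The values were -0.94 for Mthfd1l (SE 0.22, adjusted p = 0.073) and -0.61 for Mthfd2 (SE 0.16, adjusted p = 0.098). Under spike-in scaling they were -0.56 for Mthfd1l (adjusted p = 0.29) and -0.25 for Mthfd2 (adjusted p = 0.55). Without S38D asynchronous replicate 2 the value was -1.18 for Mthfd1l and 0.76 for Psph. Over the 12 fits that left out 1 library, Mthfd1l ranged from -1.18 to -0.65 and Psph from -0.27 to 0.76. For S38A minus WT (0.993% of genes called) 1 enzyme had an unadjusted p under 0.05 and DESeq2 called 0. For S38D minus S38A (0.0382% of genes called) 2 had an unadjusted p under 0.05 and DESeq2 called 0. Without S38D asynchronous replicate 2 edgeR called 2 in each of these comparisons, and without replicate 1 it called 2 for S38A minus WT.

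**Figure D3:**
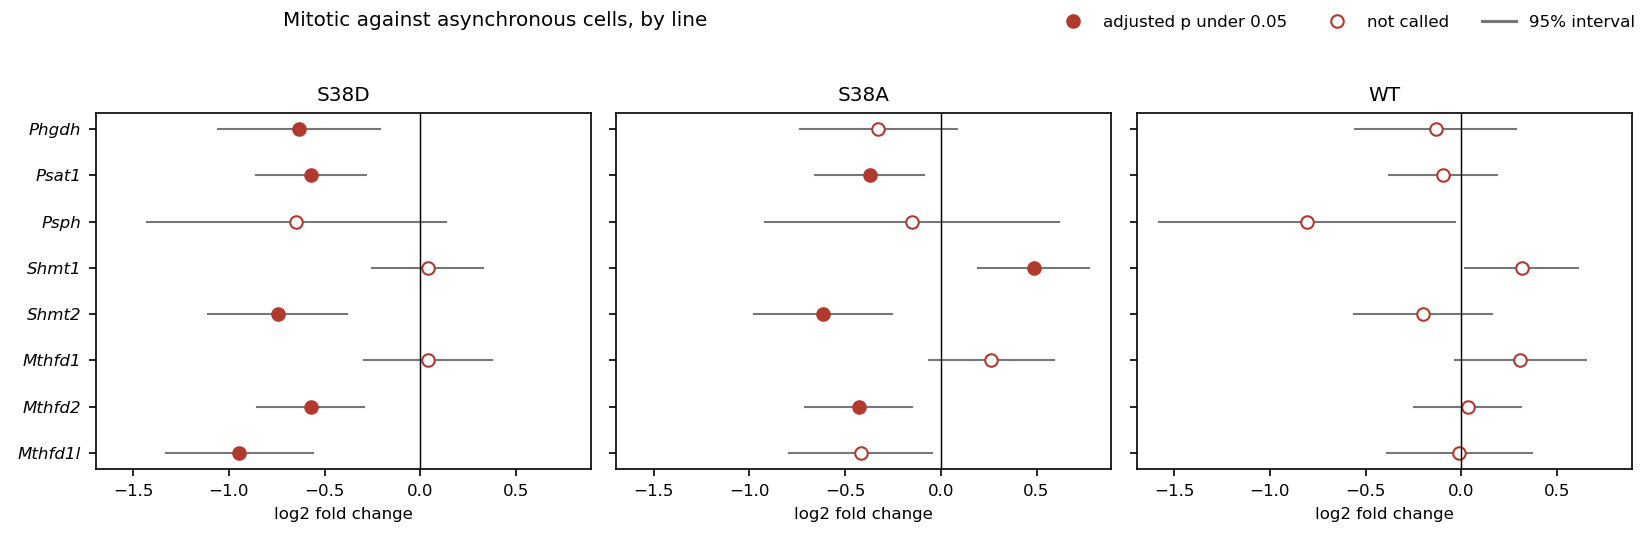
Log2 fold change of mitotic over asynchronous cells (horizontal axis) of each enzyme mRNA (rows) in the S38D, S38A and WT lines. Points are fitted values, bars are 95% intervals from the SE and 6 residual degrees of freedom, and filled points passed an adjusted p of 0.05. The values in S38D run from -0.95 for Mthfd1l to 0.04 for Shmt1 and Mthfd1, and no WT point is filled.

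The shares of all genes in this paragraph also come from the main fit of all 12 libraries, and those of other runs are not given here. Between the lines, mitotic S38D cells had 3 of 8 enzymes called against WT, Psat1, Mthfd2 and Mthfd1l, all lower, where 4.56% of all genes were called, 3.41% lower and 1.15% higher. The count was 6 without either one of the S38D asynchronous libraries, with Phgdh, Psph and Shmt2 added, all lower, and 2 without WT mitotic replicate 1 or either one of the S38D mitotic libraries. Mitotic S38A cells had 3 called against WT, where 17% of all genes were called, 8.72% lower and 8.31% higher. Mthfd2 was lower, and Shmt1 and Mthfd1 were higher. Asynchronous S38D cells had 1 enzyme called against WT (8.99% of all genes called, 4.87% higher and 4.12% lower), Shmt1 (0.42, SE 0.12, adjusted p = 0.040), which passed in 3 of 12 fits that left out 1 library. It was 0.23 (adjusted p = 0.23) without S38D asynchronous replicate 1 and 0.01 (adjusted p = 0.95) under spike-in scaling. Asynchronous S38A cells had 3 called higher than WT (21.2% of all genes called, 11.7% higher and 9.54% lower), Mthfd1, Mthfd1l and Shmt1. Shmt1 was at 0.38 there (SE 0.12, adjusted p = 0.032), was not called without any one of the S38A asynchronous, WT asynchronous or S38D mitotic libraries, and turned to -0.08 (adjusted p = 0.68) under spike-in scaling, and Mthfd1 was no longer called (0.48, adjusted p = 0.066). Spike-in scaling left 0 enzymes called higher there and 2 lower, Psat1 (-0.53, adjusted p = 0.011) and Mthfd2 (-0.65, adjusted p = 0.0042). In asynchronous S38D cells it likewise gave 2 lower than WT, Psat1 (-0.48, adjusted p = 0.035) and Mthfd2 (-0.56, adjusted p = 0.023). Spike-in scaling moved the median of all genes by -0.45 in that comparison, by -0.38 in S38D against WT in asynchronous cells, by -0.43 in WT mitotic against asynchronous cells and by -0.18 over the lines. S38D against S38A gave 4 enzymes called in mitotic cells (17.7% of all genes called, 10.2% lower), Phgdh, Shmt1, Mthfd1 and Mthfd1l, all lower. All 8 enzymes had lower values in both mitotic S38D libraries than in either mitotic S38A library. The share of all genes that lay apart in this way was not counted, so that count is a description only. Asynchronous S38D against S38A gave 2 called, both lower (7.22% of all genes called, 3.89% lower), Mthfd1 and Mthfd1l. Mthfd1l was at -0.54 there (SE 0.15, adjusted p = 0.046) and passed in 3 of 12 fits that left out 1 library, with -0.30 (adjusted p = 0.12) without S38D asynchronous replicate 2. Without either one of the S38D asynchronous libraries, asynchronous S38A against WT gave 5 called enzymes and mitotic S38D against S38A gave 6, with Psph and Shmt2 added in both. Without either one of the S38A mitotic libraries or S38D mitotic replicate 1, mitotic S38D against S38A gave 2, Mthfd1 and Mthfd1l.

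**Figure D4:**
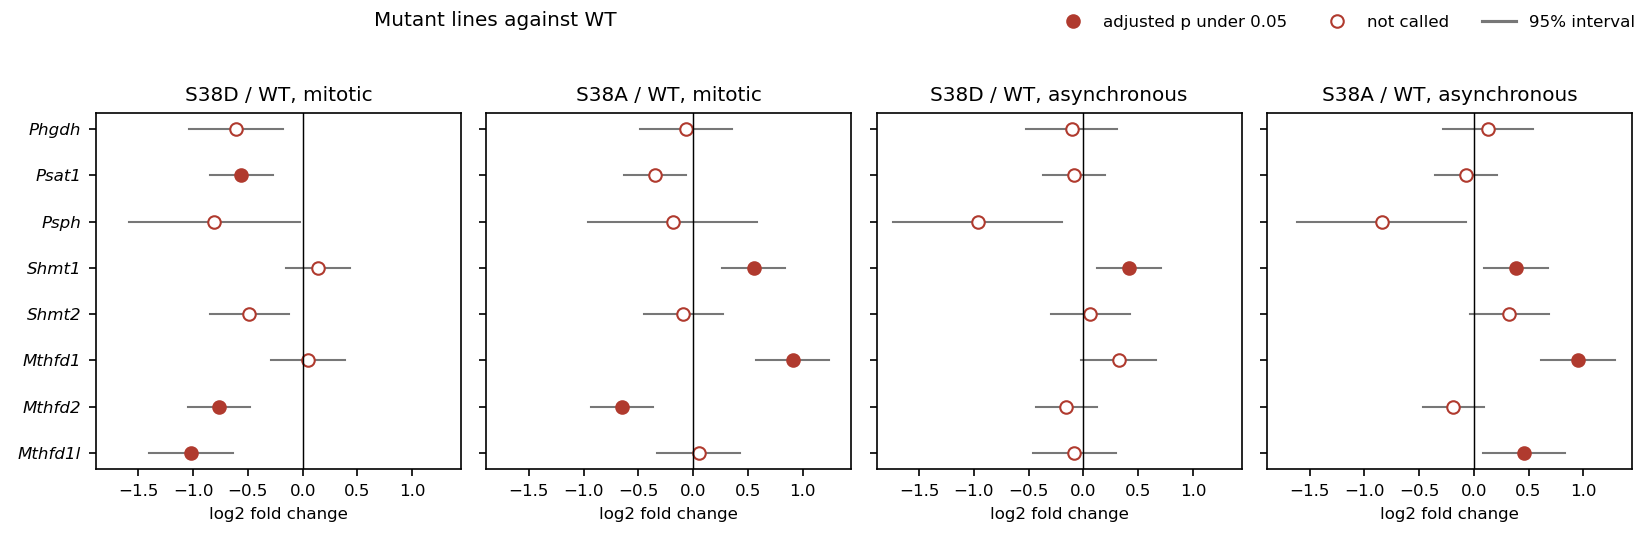
Log2 fold change against WT (horizontal axis) of each enzyme mRNA (rows) in S38D and S38A, for mitotic and asynchronous cells. Points are fitted values, bars are 95% intervals as above, and filled points passed an adjusted p of 0.05. In mitotic cells Mthfd1l stands at -1.02 in S38D and 0.05 in S38A, and Mthfd1 at 0.05 in S38D and 0.91 in S38A.

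Other amino acid response genes, many of them known targets of ATF4, were mostly lower in the mutant lines. Of 15 other amino acid response genes, 14 were tested. Against WT, 10 fell in mitotic S38D cells (3.41% of all genes fell), 12 in mitotic S38A cells (8.72%), 10 in asynchronous S38D cells (4.12%) and 11 in asynchronous S38A cells (9.54%), where Ddit4 alone was called higher (0.39, SE 0.10, adjusted p = 0.011). That value turned to -0.07 (adjusted p = 0.73) under spike-in scaling. Their median log2 change against WT was -1.48 in mitotic S38D cells, -0.91 in mitotic S38A cells, -1.05 in asynchronous S38D cells and -0.85 in asynchronous S38A cells. The median of the 8 enzymes was -0.58 in mitotic S38D cells, -0.08 in mitotic S38A cells, -0.08 in asynchronous S38D cells and 0.23 in asynchronous S38A cells, and that of all genes tested was between -0.016 and 0.027. Trib3, a pseudokinase induced by amino acid shortage, fell in all 4 comparisons, with -3.08 in mitotic S38D cells (SE 0.14) and -1.55 in mitotic S38A cells (SE 0.13). Atf5, a transcription factor of the same response, fell in all 4 too, with -1.65 in mitotic S38D cells and -1.27 in mitotic S38A cells (SE 0.12 each). Cebpb, a transcription factor, fell in asynchronous cells, with -1.90 in S38D and -2.28 in S38A (SE 0.18 each). Atf4 mRNA was lower than in WT in mitotic S38D cells (-0.87, SE 0.12, adjusted p = 0.00041), mitotic S38A cells (-0.59, SE 0.12) and asynchronous S38D cells (-0.63, SE 0.12), and its value in asynchronous S38A cells was -0.17 (adjusted p = 0.34). No other of the 6 tested regulators was called in these comparisons. Under spike-in scaling Atf4 was also called in asynchronous S38A cells (-0.64, adjusted p = 0.011), Nfe2l2 and Eif2ak1 were called lower in both asynchronous mutants, and Myc was called lower in asynchronous S38D cells (-0.81, adjusted p = 0.025).

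**Figure D5:**
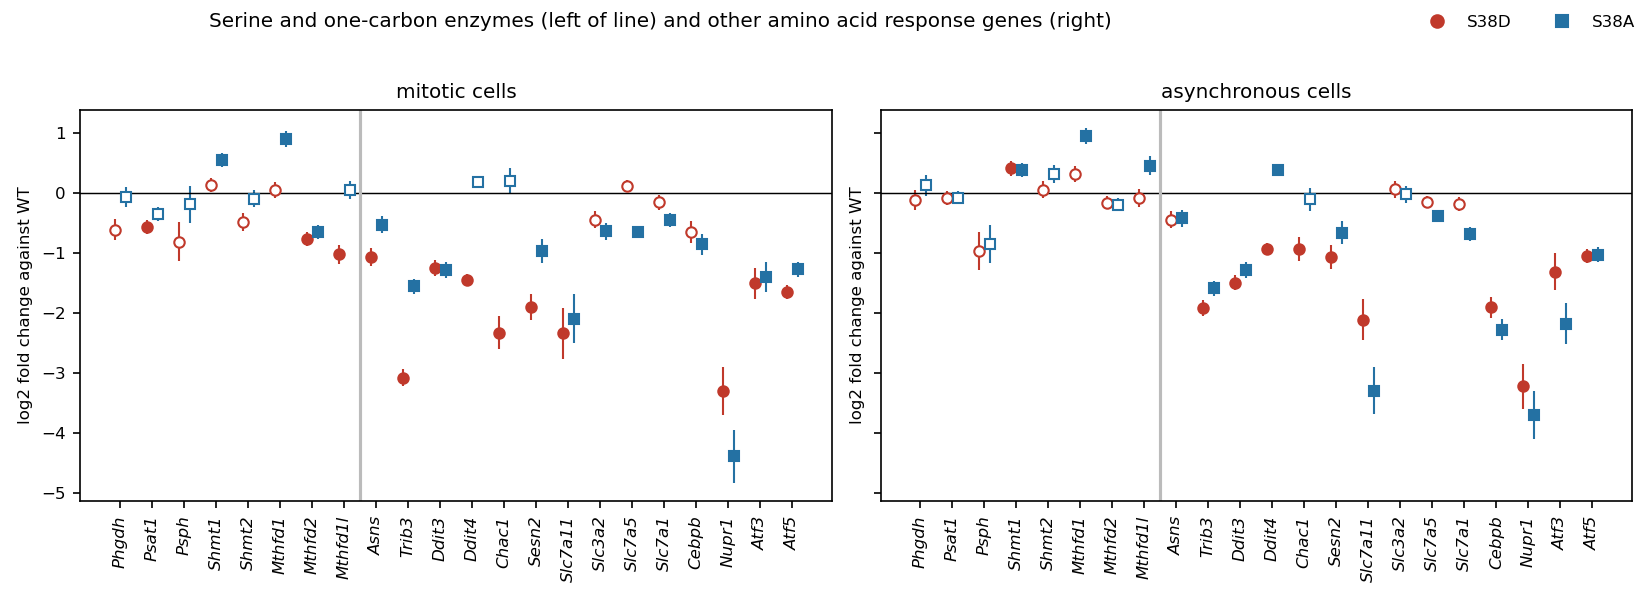
Log2 fold change against WT (vertical axis) of the 8 enzymes, left of the vertical line, and of 14 other amino acid response genes, in mitotic and asynchronous cells. Points are fitted values of S38D and S38A, bars are standard errors, and filled points passed an adjusted p of 0.05. Trib3 stands at -3.08 in mitotic S38D cells, where the lowest enzyme, Mthfd1l, stands at -1.02.

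Neighbouring steps of the pathway moved in both directions. In serine and glycine transport, with 8 of 9 genes tested, Slc6a9, a glycine transporter, and Slc1a4, a neutral amino acid transporter that carries serine, fell in both mutants in both states. Slc6a9 was at -1.47 in mitotic S38D cells and -1.23 in mitotic S38A cells (SE 0.16 each). Slc1a4 was at -1.21 in mitotic S38D cells (SE 0.16) and -0.95 in mitotic S38A cells (SE 0.15). Sfxn1, the mitochondrial serine carrier, and Slc1a5, a glutamine transporter, were called higher in asynchronous S38A cells (0.41 and 0.38, SE 0.12 each), and under spike-in scaling both values were below 0 (-0.04 and -0.07). In the methionine cycle and transsulfuration, with 7 of 10 genes tested, Cth, which makes cysteine from cystathionine, fell in all 4 comparisons with WT, with -2.36 in mitotic S38D cells (SE 0.40, adjusted p = 0.018) and -1.53 in mitotic S38A cells (SE 0.38, adjusted p = 0.031). Both mitotic calls were lost under spike-in scaling, at -2.40 in S38D and -1.53 in S38A. Mtap was higher in S38D cells, by 0.50 in mitotic and 0.42 in asynchronous cells, which under spike-in scaling were 0.45 (adjusted p = 0.16) and 0.04 (adjusted p = 0.86) and no longer called. Mat2a was higher in asynchronous S38A cells at 0.39, which turned to -0.07 under spike-in scaling.

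Of 12 tested genes of the folate cycle and folate transport, mitotic S38A cells had 2 higher and 2 lower than WT, among them Mtr at 0.80 and Dctd at -0.69, where 8.31% of all genes were higher and 8.72% lower. Mitotic S38D cells had values against WT of -0.19 for Mtr and 0.10 for Dctd, of which neither passed. Of 10 purine synthesis genes, mitotic S38A cells had 2 higher, Paics at 0.72 and Ppat at 0.52. Spike-in scaling ended the calls of Dctd (adjusted p = 0.091), Paics (adjusted p = 0.11) and Ppat (adjusted p = 0.079). Asynchronous S38A cells had 1 purine gene higher (11.7% of all genes), Gart at 0.38, which was -0.08 under spike-in scaling. In the glycine cleavage system, with 2 of 4 genes tested, mitotic S38A cells had Dld, which also lies on chromosome 12, higher at 1.16 and Gcsh lower at -0.70. Of 9 tested genes of serine use, Srr, the serine racemase, was lower in both mutants in asynchronous cells (-0.62 in S38D and -0.54 in S38A), Serinc1 was lower in asynchronous S38A cells (-0.82), and Ptdss1, a phosphatidylserine synthase gene, was higher in asynchronous S38D cells (0.38, which was -0.01 under spike-in scaling). Averaged over the lines, mitotic cells had 4 purine genes higher and 0 lower, 3 folate genes higher and 2 lower, and 3 amino acid response genes higher and 7 lower of 14, where 20.5% of all genes were higher and 21.6% lower. Under spike-in scaling these counts were 2 higher and 2 lower for purine genes, 2 higher and 3 lower for folate genes, and 3 higher and 9 lower for amino acid response genes. The shares of all genes under that scaling are not given here.

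Similarity of pattern was measured as the root mean square difference between log2 profiles over the 12 libraries, each centred on its own mean, which is a description and shares the scaling of the libraries. Within the set, Psat1 and Mthfd2 were closest at 0.108, followed by Phgdh and Shmt2 at 0.142. Mthfd1l was closest to Shmt2 at 0.238, Mthfd1 and Shmt1 were closest to each other at 0.277, and Psph was no closer than 0.447 to any other enzyme. Psph and Mthfd1 were farthest apart at 0.756. Among 6837 genes outside the set with a mean of at least 10 CPM, the closest to Phgdh were Ip6k1 at 0.108, Ncf4 at 0.116 and Parp11 at 0.123. The closest to Psat1 were Pskh1 at 0.0935, Parp11 at 0.0960 and Dlgap4 at 0.101, and the closest to Shmt2 were Tfeb at 0.0957, Shkbp1 at 0.103 and Ip6k1 at 0.109.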

How the data were processed

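The deposited files hold raw read counts, one file a library, with 51826 gene rows and 92 rows of spike-in RNA. Per the labels' protocols, 1 µg of total RNA from cleared polysome lysates was mixed with ERCC spike-in RNA, and QuantSeq 3′ forward libraries were read to 51 nt. Per the submitters' processing notes, the tools included cutadapt 1.12, STAR 2.5.3a and bcl2fastq 2.16.0.10, with the build mm10. The counting program, its annotation and its strand setting: not given in the sources used here.

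Symbols came from GENCODE M21 on GRCm38, which matched 51633 identifiers. Genes passed filterByExpr at a minimum count of 10. All 12 libraries entered 1 edgeR 4.0.16 fit (R 4.3.3, limma 3.58.1) with TMM factors, a mean per group and 6 residual degrees of freedom. Robust quasi-likelihood F tests had their p-values adjusted (Benjamini-Hochberg) across the 10477 genes tested in each of 13 comparisons, and the SE was derived from F. The procedure was tested on simulated data.

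The enzymes and the lists of related genes were chosen with earlier results of these data known, as were the 3 promoter motifs. Of each of 8 related lists, the text names at most 4 genes called in a mutant against WT, those with the smallest adjusted p, and some genes that this rule selects are not reported here. Similar genes outside the set were the 3 closest to each of Phgdh, Psat1 and Shmt2, without predicted genes. Chromosome 12 and the Shmt2 to Shmt1 ratio were chosen after values were seen. BLAST 2.17.0 searched the last 300 transcript bases for copies of at least 50 bases. Alternatives were DESeq2 1.42.0, DESeq2 size factors, spike-in scaling, no filter, a mean of at least 10 CPM, fits limited to the compared groups, a replicate block, omission of each library, and omission of S38D asynchronous replicate 1 with WT mitotic replicate 1, one from each of the 2 groups whose replicates lay farthest apart. Intervals in the figures come from the SE of the edgeR fit and so reflect the spread of these libraries, which may be technical. Floors of 3 reads cover counting error only, and reads are not independent molecules.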

Additional observations from a re-analysis of the deposited data

How the results depend on the processing

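Of 2072 values of single enzymes under an alternative, 1801 kept their direction and their side of the threshold, 60 changed sign without a call on either side, 101 called values were no longer called, 107 were newly called, and 3 turned round, all under spike-in scaling. The 3 were Mthfd2 in WT mitotic against asynchronous cells (-0.42), and Shmt1 (-0.078) and Mthfd1l (-0.010) in S38A against WT in asynchronous cells. The counts of called enzymes in this section stand without the shares of all genes called in the same runs, which are not given here. A change in these counts cannot be told apart from a change in calls over all genes. For mitotic against asynchronous cells, spike-in scaling gave 5 called enzymes in WT, all lower (0 with TMM), and 2 in S38A, 1 higher and 1 lower (4 with TMM). In asynchronous cells it gave 2 lower in S38D against WT (1 higher with TMM), 2 lower in S38A against WT (3 higher with TMM) and 0 in S38D against S38A (2 lower with TMM).

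DESeq2 called 1 in WT mitotic against asynchronous cells, 2 in asynchronous S38D against WT and 2 for S38D minus WT in the mitotic change. Without a filter, 5 were called in mitotic S38D against WT and 4 for S38D minus WT. A mean of at least 10 CPM gave 1 in WT mitotic against asynchronous cells and 2 in asynchronous S38A against WT. Fits of only the groups compared gave 1 in WT, 6 in S38A and 2 in S38D for mitotic against asynchronous cells, 0 and 6 for S38D and S38A against WT in asynchronous cells, 0 for S38D against S38A in asynchronous cells, and 2 for S38A minus WT. That fit could not be had for the mean over the lines, which uses all groups.

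Without S38D asynchronous replicate 1 and WT mitotic replicate 1 together, the mitotic comparison gave 2 in WT and 6 in S38A, mitotic S38D gave 6 against WT and 7 against S38A, asynchronous S38A gave 5 against WT, asynchronous S38D gave 4 against S38A, and S38A minus WT and S38D minus S38A gave 1 each.

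With each library left out in turn, calls in mitotic against asynchronous cells ranged from 6 to 8 over the lines, 0 to 2 in WT, 0 to 5 in S38A and 4 to 5 in S38D. In asynchronous cells they ranged from 0 to 2 for S38D against WT, 1 to 5 for S38A against WT and 0 to 3 for S38D against S38A. In mitotic cells they ranged from 2 to 6 for S38D against WT, 3 to 4 for S38A against WT and 2 to 6 for S38D against S38A. The differences in mitotic change ranged from 0 to 7 for S38D minus WT, 0 to 2 for S38A minus WT and 0 to 2 for S38D minus S38A. Such fits take the spread of a group's lone library from the other groups. Apart from the shifts of scale given above, the cause of these changes was not tested.

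The replicate block gave 8 calls over the lines, against 7 without it, and 4 in mitotic S38A against WT, against 3. Of 15 correlations of replicate differences between groups, over 7062 genes, 3 were above 0.1 and 3 below -0.1 (-0.402 to 0.787). The replicate number thus did not carry a difference common to all groups. Whether some groups shared a culture or a day was not tested.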
